A study of Mus musculus with 12 samples.

Results

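The genes described here encode the proteins of the cytosolic ribosome, followed in mouse mammary organoids over a series of CHIR99021 concentrations. Members were the protein-coding rows of the deposited gene table whose symbol begins with Rps or Rpl and continues as a ribosomal protein name. By this naming rule, which used no measured value, 82 of the 25210 genes in the table were members, 32 of them for the small (40S) and 50 for the large (60S) subunit. Organoids had been set up from the mammary epithelium of virgin FVB/N female mice aged 8 to 11 weeks and kept in growth-factor-reduced Matrigel with minimal medium. For 7 days they received the vehicle dimethyl sulfoxide (DMSO) or CHIR99021, an inhibitor of the kinase GSK3, at 1, 1.5 or 3 µM, to activate WNT/CTNNB1 signalling. Each of 3 cultures, each from its own animal, was divided over all 4 treatments, which gave 12 libraries of polyadenylated RNA, 3 per group. Animals were not pooled, and no transgene or Cre driver is named in the labels. The labels add a code (med, min or max) to each culture without saying what it means. These are bulk libraries, so a change in the cells' composition and a change of RNA per cell cannot be told apart.

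The eukaryotic ribosome joins a small subunit, which decodes the mRNA, to a large subunit, which forms the peptide bond, and each contains ribosomal RNA and 1 copy of most of its proteins. Because most of these proteins are needed in equal amounts, their genes are usually expressed together, at high levels, in step with cell growth. Their mRNAs begin with a terminal oligopyrimidine (TOP) tract, a C followed by a run of C and T (U in RNA), through which mTOR and LARP1 control their translation and stability. MYC, a WNT target in many epithelia, is known to raise transcription of these genes and of the machinery that makes ribosomal RNA.

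Ribosomal protein mRNA took up a larger share of the libraries at each higher concentration. The 82 genes held 2.58, 2.05 and 2.77% of all counts in the DMSO libraries of cultures 1, 2 and 3. At 1 µM the shares were 3.97, 3.30 and 4.00%, and at 1.5 µM they were 4.97, 4.57 and 5.42%. At 3 µM they reached 7.15, 6.86 and 6.77%. No group overlapped with the next, and the group means were 2.47% ± 0.374, 3.76% ± 0.397, 4.99% ± 0.428 and 6.92% ± 0.199 (SD, n = 3). Culture 2 had the lowest share in DMSO, at 1 µM and at 1.5 µM, and culture 3 had the lowest at 3 µM. As a sum over chosen genes, this share was given no test.

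**Figure D1:**
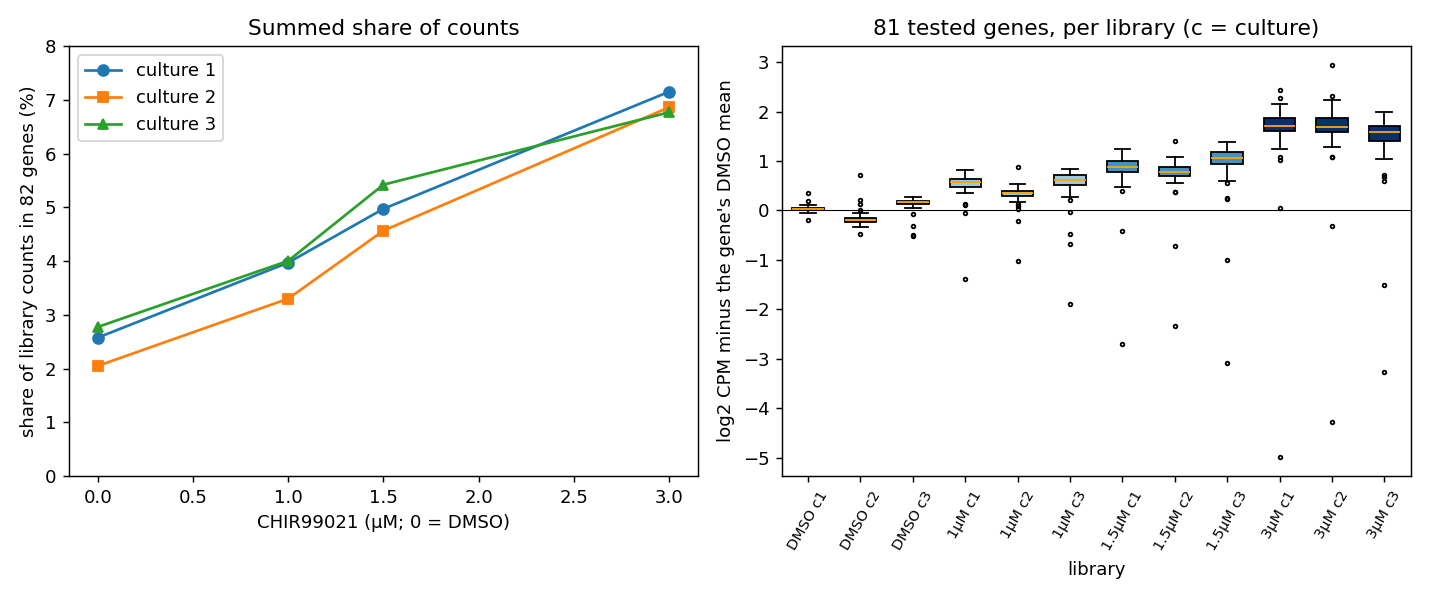
Left, share of each library's counts (%) in the 82 ribosomal protein genes against the CHIR99021 concentration in µM, with 1 line per culture. Right, for each library, the spread of log2 CPM minus the gene's DMSO mean over the 81 tested genes (line, median; box, quartiles; whiskers, farthest genes within the usual box-plot limits; dots, genes beyond them). The share went from between 2.05 and 2.77% in DMSO to between 6.77 and 7.15% at 3 µM in the 3 cultures, and the lowest dots in the treated libraries belong to Rpl39l.

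Gene by gene, nearly the whole set moved in 1 direction. Levels are given below in CPM, the read counts scaled to a common depth, after TMM scaling of the library sizes (a trimmed mean of gene-wise ratios), and 81 of the 82 genes had enough counts to be tested. The exception was Rpl3l, a muscle-associated copy of Rpl3, which had at most 6 counts in any library. A gene was called changed when its adjusted p (edgeR quasi-likelihood test, two-sided, Benjamini-Hochberg over all 15316 genes tested) was under 0.05. At 3 µM against DMSO, 79 of the 81 genes rose and 1, Rpl39l, fell, where 29.9% of all tested genes rose and 27.7% fell. The members' median log2 fold change was 1.66, a 3.16-fold rise, against a median of -0.03 over all tested genes, and the quartiles of the members were 1.55 and 1.80. With the culture entered as a replicate block, 79 rose and 2 fell, against 34.1% and 34.8% of all tested genes. All 3 µM libraries lay above all DMSO libraries for 79 members, against 30.9% of all tested genes. At 1.5 µM, 76 rose and 1 fell, with background shares of 15.4% and 11.8%, and the median log2 fold change was 0.91. Leaving out culture 1 gave 60 higher and 1 lower at 1.5 µM, and leaving out culture 2 gave 61 and 0.

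The lowest concentration gave a shift of the same direction, and whether single genes passed the test depended on the model. At 1 µM the members' median log2 fold change was 0.51, a 1.43-fold difference, while the median over all tested genes was 0.00. Without the replicate block, the fit left out that the groups share the same 3 animals. In that fit none of the 81 was called by edgeR, and the background was 0.189% higher and 0.0522% lower. The smallest adjusted p was 0.0904, for Rps19, while 76 members had an unadjusted p under 0.05, 75 of them with the higher level at 1 µM. With the replicate block, edgeR called 60 members higher and 1 lower at 1 µM, where 2.55% of all tested genes were called higher and 3.06% lower. DESeq2 called 66 higher and 1 lower. All 1 µM libraries lay above all DMSO libraries for 76 members, against 11.2% of all tested genes.

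Between the treated groups the steps were unequal in how many genes passed without the replicate block, and less so with it. From 1 to 1.5 µM the median difference was 0.40 on the log2 scale and 6 members rose, with a background of 4.43% higher and 0.992% lower. The count for this step was 0 with no filter on low counts and without any single library at 1 or 1.5 µM, and 23 without culture 3 at 3 µM. The replicate block gave 66 higher and 1 lower for this step, against 11.3% and 10.5% of all genes. From 1.5 to 3 µM the median difference was 0.75 and 77 members rose, with a background of 17% higher and 12.7% lower. The replicate block gave 79 higher and 1 lower for this step, against 24.7% and 22% of all genes. Without the block, 9 rose in this step when culture 1 was left out, 14 without culture 2 and 79 without culture 3. The comparisons with DMSO share the same 3 control libraries, so their fold changes are not independent of each other.

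Depth and composition of the libraries bear on these values as follows. Library totals ran from 10.1 to 24.5 M counts (M, mega). TMM factors averaged 1.01, 1.06, 1.06 and 0.878 in the 4 groups, so scaling by library size alone moved the median of all genes at 3 µM to -0.23 and that of the members to 1.46. Luminal markers were present in every library (summed level of 11 genes, 2961 to 6030 CPM), and 6 of the 11, among them Krt8, Krt18 and Krt19, fell at 3 µM. Markers of other cell states moved with the dose too. All 8 squamous markers rose at 3 µM, from a summed 32.9 to 73.9 CPM in DMSO to 9183 to 33482 CPM, and Krt5, Krt14 and Trp63 of the 7 basal or myoepithelial markers rose while the other 4 fell. The 7 fibroblast markers summed to 1624 to 20508 CPM in DMSO and 175 to 4569 CPM at 3 µM with none called. All 4 endothelial markers (217 to 467 CPM in DMSO, 22.8 to 76.9 CPM at 3 µM) and 2 of 3 tested immune markers (25.6 to 173 and 10.04 to 51.5 CPM) fell, and the immune markers Cd3e and Cd79a were at or near 0 throughout. The part of these cell types in the ribosomal protein values was not tested.

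The direction was shared by almost every member in every culture. From DMSO through 1 and 1.5 to 3 µM, 79 of the 81 genes were higher after each step in all 3 cultures, whereas 9.5% of all tested genes did so. The 2 exceptions were Rpl39l and Rps4l. Within cultures 1, 2 and 3 the median member stood 1.68, 1.89 and 1.42 log2 units above its own DMSO library at 3 µM, after 0.85, 0.99 and 0.90 at 1.5 µM and 0.54, 0.56 and 0.44 at 1 µM. Culture 3 thus had the smallest difference at 3 µM. It also started from the highest DMSO level. Relative to the members' DMSO means, the DMSO libraries of cultures 1, 2 and 3 had medians of 0.03, -0.20 and 0.16. At 3 µM these medians were 1.71, 1.69 and 1.58. The squamous markers of culture 3 at 3 µM summed to 9183 CPM, against 33482 and 30798 CPM in cultures 1 and 2. Its fibroblast markers summed to 4569 CPM there, against 175 and 972 CPM. In DMSO they summed to 20508 CPM, against 1624 and 7372 CPM. A link of these markers to the smaller difference was not tested.

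The spread among members was smaller than that among all tested genes in each group, and both were wider at each higher dose. At 3 µM, 64 of the 81 genes lay within 0.25 and 76 within 0.5 log2 units of the set's median change. Spread was the scaled median absolute deviation of the members' changes from their DMSO means, around each library's own median change. It averaged 0.05, 0.11, 0.15 and 0.20 log2 units over the libraries of the 4 groups in order of dose. The same quantity over all tested genes was 0.22, 0.33, 0.58 and 1.01. Members and all tested genes were not matched for abundance, and the part of counting noise in this difference was not tested. Over the 12 libraries, which share 4 treatments and 3 cultures, 76 members had a Pearson r above 0.95 with the median profile of the other members. The share of all tested genes above 0.95 was not counted, so this number has no background beside it. The members with the lowest r were Rpl39l at -0.97, Rps4l at -0.50, Rpl23a at 0.73, Rpl22l1 at 0.85 and Rps27l at 0.89.

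Most of the genes whose profile was most like that of the set were members. Of the 100 tested genes with the highest r to the set's median over the 12 libraries, 68 were members. In this ranking each member was itself part of the median, which favours members. The non-members with the highest r were the elongation factor subunit Eef1b2 (0.998), the initiation factor Eif4b (0.998) and Gnb2l1 (0.998), whose product RACK1 sits on the small subunit. Gm6472 (0.998) and Rps27rt (0.997), Fau (0.996), Eef1g (0.995), Eef1a1 (0.994), Eef2 (0.992) and Rpsa (0.992) followed.

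Start-site sequences show what most members share that the naming rule did not use. RefSeq promoter windows (GRCm38.p6) were found for 61 of the 82 members. Runs of a C followed by pyrimidines were searched on the strand with the RNA's sequence, from 20 bases before to 50 after the annotated start. A run of at least 8 bases was present in 48 members (78.7%), against 22.7% of 27025 genes. For runs of at least 5 bases the shares were 93.4% and 67.9%. The windows below show 30 bases each, in the direction of transcription, with the longest run inside the searched stretch in capitals. The first 6 are from genes that rose with the set, including Rpl13a and Rps12, which rose most among abundant members, and the last 3 are from second copies described further on. The annotated starts are not exact transcription starts, so the runs are matches of letters in a window and no more.
Rpl13a (chr7:45128722-45128751, minus strand): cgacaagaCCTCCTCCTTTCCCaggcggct
Rps12 (chr10:23787182-23787211, minus strand): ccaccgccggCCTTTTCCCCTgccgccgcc
Rpl15 (chr14:18270968-18270997, minus strand): gagaaagCCTTCTTCCTTTCCTCTggcggc
Rps10 (chr17:27635227-27635256, minus strand): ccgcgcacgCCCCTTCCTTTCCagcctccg
Rps6 (chr4:86857349-86857378, minus strand): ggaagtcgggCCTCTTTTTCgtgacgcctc
Rps27 (chr3:90213632-90213661, minus strand): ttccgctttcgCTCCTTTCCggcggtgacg
Rps27l (chr9:66946063-66946092, plus strand): actcctctccaCTCCTCCCCgccgcctcta
Rpl22l1 (chr3:28805500-28805529, plus strand): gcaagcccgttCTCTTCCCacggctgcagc
Rpl39l (chr16:10170209-10170238, plus strand): ctagctcccaggCCTTTCCggatttccggt

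The longest run was 14 bases in Rpl13a, 11 in Rps12, 17 in Rpl15, 13 in Rps10, 10 in Rps6 and 9 in Rps27. It was 9 bases in Rps27l, 8 in Rpl22l1 and 7 in Rpl39l. Other members called higher at 3 µM had runs from 3 bases in Rps28 and 4 in Rpl24 and Rpl27 to 20 in Rpl34. In Rpl7l1, a relative of Rpl7, the longest run was 3 bases. A link between run length and fold change was not tested. The letters CGGAAG, the core recognised by ETS-family factors such as GABPA, were also common. They occurred on either strand of the 300-base promoter window in 67.2% of the matched members, against 18.8% of genes. This window ran from 250 bases before to 50 after the annotated start. On the other strand the letters read CTTCCG, which can overlap a pyrimidine run, and such overlaps were not counted. CACGTG, the E-box bound by MYC and other factors, occurred in 6 members (9.84%), against 8.09% of genes. ATCAAAG, a TCF/LEF core, occurred in 0 of the 61 members, against 4.29% of genes.

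The genes of the 2 subunits rose together, those of the small subunit by slightly more. At 1, 1.5 and 3 µM the median log2 fold change was 0.56, 0.96 and 1.72 for the 32 tested small-subunit genes and 0.47, 0.88 and 1.62 for the 49 tested large-subunit genes. The ratio of large-subunit to small-subunit counts was 1.39, 1.40 and 1.37 in the DMSO libraries and 1.33, 1.33 and 1.35 in the 3 µM libraries. The group means were 1.39 ± 0.0127, 1.36 ± 0.00763, 1.35 ± 0.00624 and 1.33 ± 0.0105 in order of dose (SD, n = 3), and the DMSO libraries did not overlap with any treated library. In culture 3 the ratio was 1.34 at 1.5 µM and 1.35 at 3 µM. No test was made on this ratio, since it is a sum over chosen genes.

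The stalk of the large subunit, which recruits the elongation factors, is built from Rplp0, Rplp1 and Rplp2. Rplp0, its anchor on the ribosome, measured 887, 742 and 1035 CPM in DMSO and 3479, 3344 and 2584 CPM at 3 µM. Rplp1 measured 513, 414 and 518 CPM in DMSO and 1978, 2069 and 1382 CPM at 3 µM, and Rplp2 measured 256, 243 and 283 CPM in DMSO and 808, 859 and 711 CPM at 3 µM. In each of the 3 genes every treated library at 3 µM was above every DMSO library, and culture 3 was the lowest at 3 µM. The log2 fold changes were 1.82 (adjusted p = 1.35e-05), 1.91 (1.6e-05) and 1.60 (7.22e-06, edgeR quasi-likelihood test).

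The members with the highest mean CPM were Rpl4, Rplp0 and Rpl13a. Rpl4, a protein of the exit tunnel, averaged 1116 ± 144 CPM with vehicle, and the rising concentrations gave 1628 ± 139, 2191 ± 191 and 3522 ± 23.5 CPM (SD, n = 3). Its log2 fold change of 1.66 at 3 µM equalled the set's median. Per kilobase of exon, levels in DMSO differed widely among members, from 2.99 CPM per kb for Rpl21 to 965 CPM per kb for Rplp1 among tested genes, with a median of 136. At 3 µM the median was 439.8 CPM per kb.

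Members with known roles beyond protein synthesis followed the set. Rpl5 and Rpl11, which bind the p53 inhibitor MDM2 together with ribosomal RNA, had log2 fold changes at 3 µM of 1.74 and 1.56. In libraries, Rpl5 measured 421, 343 and 440 CPM in DMSO and 1360, 1264 and 1392 CPM at 3 µM, and Rpl11 measured 263, 227 and 264 CPM and then 789, 777 and 662 CPM. Groups did not overlap in either gene. Rpl23 and Rpl26, also tied to MDM2 and p53, had log2 fold changes of 1.65 and 1.80. Rps6, the phosphorylation target of S6 kinase, rose from 282 ± 44.1 to 923 ± 27.6 CPM. Rps27a, which encodes a ubiquitin fused to a small-subunit protein, rose from 307 ± 39.1 to 1138 ± 97.9 CPM (means ± SD, n = 3). Rps3, which lies at the mRNA entry site, Rps19, mutated in Diamond-Blackfan anaemia, and Rpl38, linked to translation of Hox mRNAs, had log2 fold changes of 1.85, 1.64 and 1.60. All of these genes passed the test at 3 µM, with adjusted p between 3.84e-06 for Rpl5 and 9.68e-06 for Rpl23 (edgeR quasi-likelihood test).

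**Figure D2:**
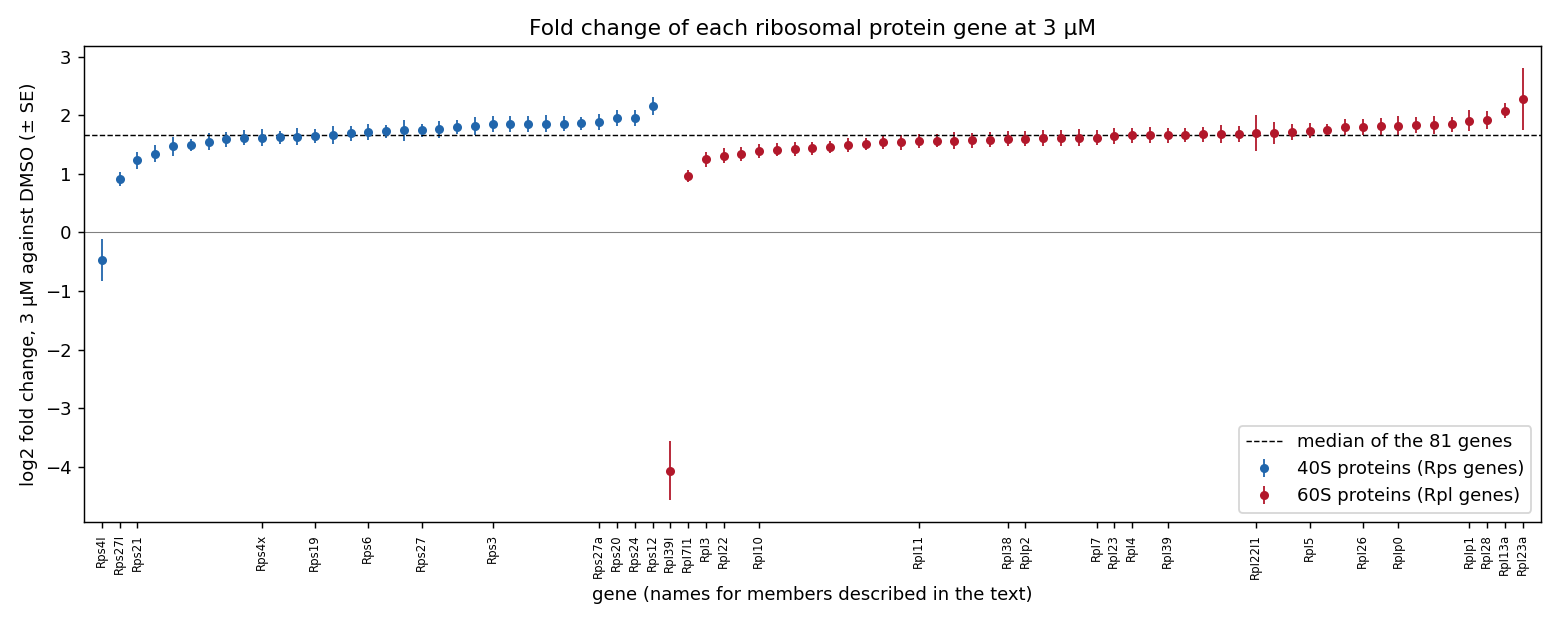
Log2 fold change at 3 µM against DMSO (y axis, ± standard error) for each of the 81 tested genes, ordered within the small-subunit (blue) and large-subunit (red) genes, with names under the members described in the text. The dashed line is the set's median of 1.66, Rpl39l at -4.07 and Rps4l at -0.47 lie below 0, and Rpl23a at 2.28 has the widest error bar above it.

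The widest departures below the set were in second copies of ribosomal protein genes. The table holds 5 tested members that by name are a copy or relative of another, called second copies here. They were Rpl39l, Rps4l, Rps27l, Rpl7l1 and Rpl22l1, and 4 of them had the 4 lowest fold changes at 3 µM. All of the other 76 tested members were called higher, with log2 fold changes between 1.24 and 2.28.

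Rpl39l (ENSMUSG00000039209, chromosome 16, 10170226 to 10174911, GRCm38) is a copy of Rpl39 best known from male germ cells, where it can replace that exit-tunnel protein. It measured 8.62, 16.3 and 6.89 CPM in the DMSO libraries, 3.81, 4.87 and 2.67 CPM at 1 µM, and 1.53, 1.96 and 1.16 CPM at 1.5 µM. At 3 µM it measured 0.314, 0.513 and 1.04 CPM. Levels were lower after each step in every culture, and from 1 µM on no treated library reached any DMSO library. In counts, 194, 161 and 128 in DMSO became 4, 8 and 15 at 3 µM. The log2 fold change was -4.07 with a standard error of 0.50 (adjusted p = 9.34e-05, edgeR quasi-likelihood test), and at 1.5 µM it was -2.76 (adjusted p = 0.00226). The call at 1.5 µM was lost without culture 2 (adjusted p = 0.0742, edgeR quasi-likelihood test). Of the tested 50-base windows of its transcripts, 0% occurred in another gene. Its partner Rpl39 measured 171, 162 and 200 CPM in DMSO and 570, 602 and 510 CPM at 3 µM, a log2 fold change of 1.66. Per kilobase of exon, Rpl39l made up 8.01, 14.8 and 5.62% of the pair in DMSO and 0.0948, 0.147 and 0.349% at 3 µM.

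Rps4l (ENSMUSG00000063171, chromosome 6, 148354656 to 148355598) is an autosomal copy of the X-linked small-subunit gene Rps4x. It measured 8.98, 9.75 and 6.79 CPM in DMSO and 8.70, 6.74 and 2.97 CPM at 3 µM. These groups overlapped, and the 1.5 µM libraries, at 6.30, 5.11 and 4.17 CPM, were below all DMSO libraries. The log2 fold change at 3 µM was -0.47 with a standard error of 0.35 (adjusted p = 0.275, edgeR quasi-likelihood test), and with the replicate block the adjusted p was 0.0464. Rps4x, with 713, 596 and 818 CPM in DMSO and 2327, 2240 and 1971 CPM at 3 µM, had a log2 fold change of 1.62. The share of Rps4l in the pair, per kilobase of exon, was 2.1% ± 0.669 in DMSO and 0.473% ± 0.195 at 3 µM (SD, n = 3).

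Rps27l (ENSMUSG00000036781, chromosome 9, 66946086 to 66949516) is a copy of Rps27 known as a p53 target. It measured 79.5, 76.2 and 71.9 CPM in DMSO, 83.4, 80.1 and 74.3 CPM at 1 µM, 105, 98.3 and 89.7 CPM at 1.5 µM and 155, 160 and 114 CPM at 3 µM. The 1 µM libraries overlapped with DMSO, and the others did not. Its log2 fold change was 0.36 at 1.5 µM (adjusted p = 0.0507, and 0.00642 with the replicate block) and 0.91 at 3 µM (adjusted p = 0.000162, edgeR quasi-likelihood test). Rps27 had a log2 fold change of 1.74 at 3 µM. The share of Rps27l in the pair, per kilobase of exon, was 41.6% ± 4.11, 33.8% ± 2.50, 32.7% ± 3.24 and 28.4% ± 3.67 over the 4 groups in order of dose.

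Rpl7l1 (ENSMUSG00000063888, chromosome 17, 46773907 to 46782656) encodes a relative of Rpl7. It measured 85.5, 82.5 and 89.9 CPM in DMSO and 92.1, 88.3 and 99.6 CPM at 1 µM, which overlap. At 1.5 µM it measured 113, 111 and 127 CPM and at 3 µM 182, 181 and 140 CPM, all above DMSO. Its log2 fold change at 3 µM was 0.96 with a standard error of 0.11, against 1.62 for Rpl7. Both passed the test, with adjusted p of 5.2e-05 and 6.9e-06 (edgeR quasi-likelihood test).

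Rpl22l1 (ENSMUSG00000039221, chromosome 3, 28805436 to 28807352), whose expression is known to be held down by the product of its partner Rpl22, differed between cultures. In cultures 1 and 2 it went from 38.9 and 36.5 CPM in DMSO to 78.4 and 75.6 CPM at 1.5 µM and 136 and 185 CPM at 3 µM. In culture 3 the 4 levels were 42.8, 47.6, 59.2 and 62.7 CPM. The log2 differences from DMSO at 3 µM within cultures were 1.80, 2.34 and 0.55, and the fitted log2 fold change was 1.70 with a standard error of 0.31 (adjusted p = 0.00102, edgeR quasi-likelihood test). Rpl22 itself measured 290, 247 and 305 CPM in DMSO and 716, 681 and 694 CPM at 3 µM. Its log2 fold change, 1.31, was among the lowest of the set, and the differences within cultures were 1.31, 1.46 and 1.18.

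**Figure D3:**
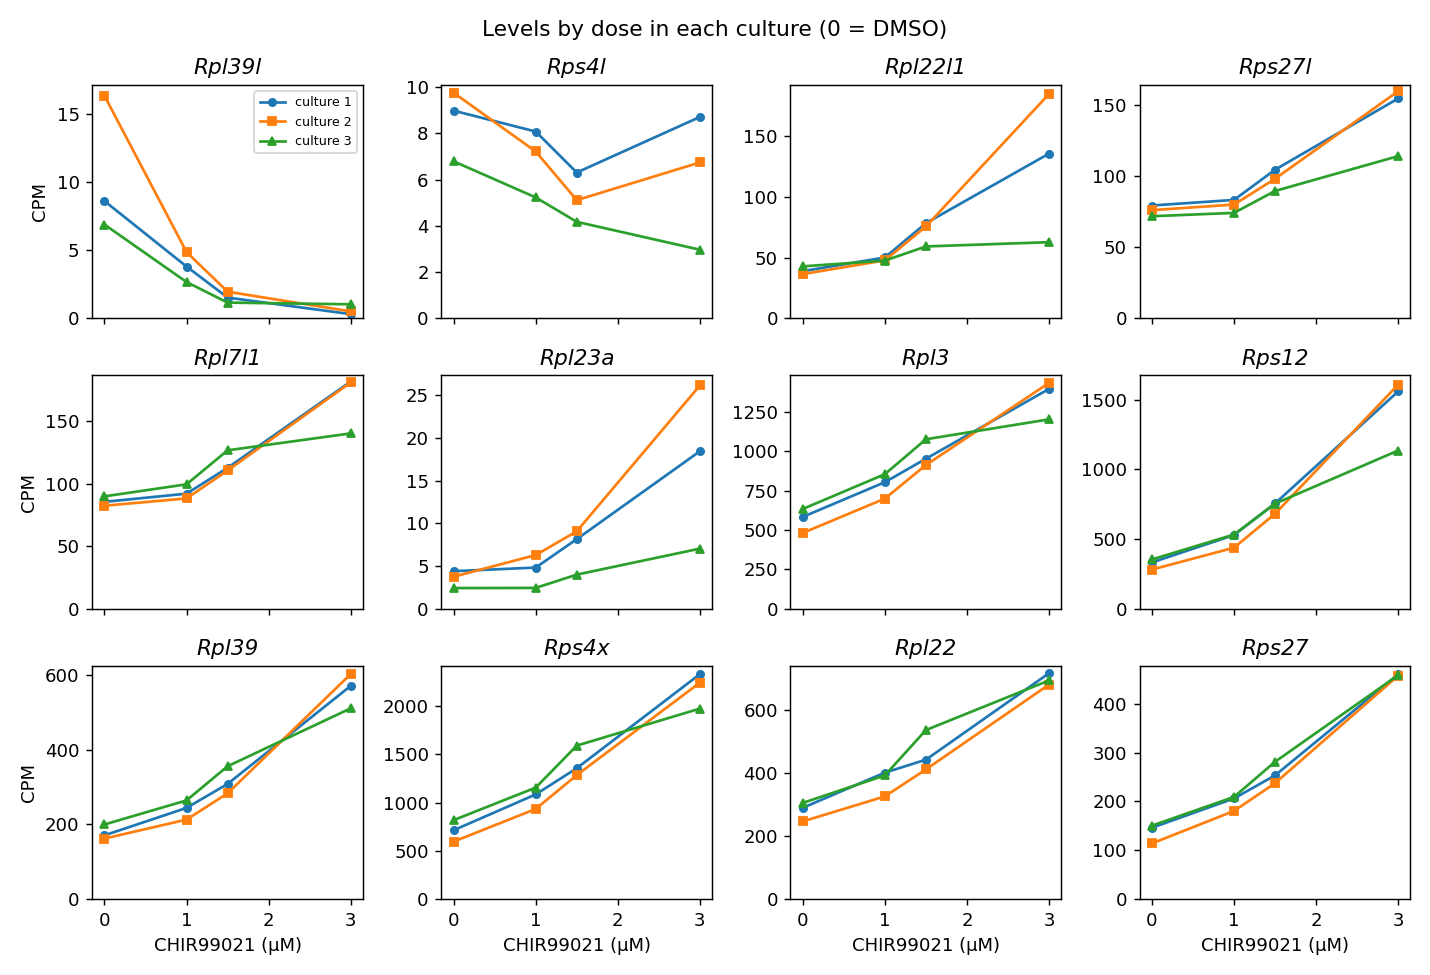
CPM (y axis, from 0, a separate scale for each gene) against the CHIR99021 concentration in µM, with 0 for DMSO and 1 line per culture. The upper panels show the 5 second copies together with Rpl23a, Rpl3 and Rps12, and the bottom row shows the partners Rpl39, Rps4x, Rpl22 and Rps27. Rpl39l fell in all 3 cultures while Rpl39 rose in all 3, and culture 3 (green) lay below the other 2 cultures at 3 µM in Rpl22l1, Rpl23a and Rps12.

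Some members of the main set also departed from its median. To ask which did so, the libraries were scaled so that the median member did not change, and the edgeR test was repeated on all genes at 3 µM against DMSO. On that scale 4 members were called higher and 11 lower than the set, where 3.63% of all tested genes were called higher and 85.5% lower. The 4 higher members were Rps12, at 0.49 log2 units above the set (adjusted p = 0.00483), Rpl13a at 0.42 (0.00547), Rps24 at 0.29 (0.0263) and Rps20 at 0.29 (0.035). The lower ones were Rpl39l (-5.76), Rps4l (-2.17), Rps27l (-0.76), Rpl7l1 (-0.71), Rps21 (-0.42), Rpl3 (-0.41), Rpl22 (-0.34), Rpl21 (-0.33), Rps9 (-0.31), Rpl10 (-0.27) and Rpl19 (-0.25). Over the 20 alternatives run for this comparison, the calls of Rpl39l, Rps4l, Rps27l and Rpl7l1 were made in all 20, and those of Rpl10, Rpl21, Rpl19 and Rps20 in 3, 7, 8 and 8. With the replicate block 29 members were called, 14 higher and 15 lower, and without culture 1 only 4, all lower.

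Rps12 (chromosome 10, 23785211 to 23787195), a protein of the small subunit's head, rose from 333, 281 and 354 CPM in DMSO to 1559, 1608 and 1135 CPM at 3 µM. Rpl13a (chromosome 7, 45125558 to 45136231), which can leave the large subunit to repress translation of inflammatory mRNAs, rose from 712, 615 and 773 CPM to 3084, 3090 and 2705 CPM. Groups did not overlap in either gene, and the rises amounted to 4.44-fold and 4.23-fold. Rpl28, of the large subunit, rose 3.78-fold, from 245, 222 and 294 CPM to 958, 918 and 1006 CPM. At the other end, Rpl3 (chromosome 15, 80077794 to 80091868), close to the peptidyl transferase centre, rose from 583, 481 and 633 CPM to 1395, 1434 and 1202 CPM, which is 2.37-fold. Rps21 (chromosome 2, 180257377 to 180258445) rose 2.35-fold, from 261, 209 and 288 CPM to 596, 632 and 557 CPM.

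The highest fold change of all was that of Rpl23a (chromosome 11, 78180932 to 78183584), with the largest standard error among the members. It had 99, 37 and 45 counts in DMSO and 235, 407 and 102 counts at 3 µM, or 4.40, 3.76 and 2.42 and then 18.4, 26.1 and 7.04 CPM. The log2 fold change was 2.28 with a standard error of 0.53 (adjusted p = 0.00433, edgeR quasi-likelihood test). Without culture 2 it was 1.89 with an adjusted p of 0.0832. On the scale relative to the set it was 0.58 with a standard error of 0.55 (adjusted p = 0.328, and 0.0264 with the replicate block). Of its transcripts' 50-base windows, 50.1% also occur in other genes, and an exon of Tlcd1 overlaps it on the opposite strand.

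Near-identical copies limit how the levels of several members can be read. How reads that match more than 1 place were counted is not given in the sources used here. Rpl21, Rps2 and Rpl23a had 2.99, 3.21 and 4.16 CPM per kb in DMSO, far below the median of 136, and Rps2 and Rpl23a share 43% and 50.1% of their windows with other genes. Fold changes moved little with this measure at 3 µM. The 6 tested members with under 5% of windows shared had a median log2 fold change of 1.76, and the 28 with at least 25% shared had 1.67. Among 62 members with no exon overlapped on the opposite strand the median was 1.63. The 154 ribosomal protein pseudogene rows together went from 0.0034% of the counts with vehicle to 0.0080% at the highest concentration.

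Short genes as a class had smaller fold changes than the members. Among other protein-coding genes with under 1 kb of exon, 298 in number, the median log2 fold change at 3 µM was 0.41, and it was 0.19, 0.04 and -0.08 in the bins of 1 to 2 kb, 2 to 4 kb and over 4 kb. Members in the same 4 bins had medians of 1.60, 1.69, 1.61 and 1.82.

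Proteins of the cytosolic ribosome whose symbols fall outside the naming rule were higher too. Rpsa, the small-subunit protein also known as the laminin receptor, measured 473, 425 and 536 CPM in DMSO and 1518, 1600 and 1259 CPM at 3 µM, a log2 fold change of 1.61 (adjusted p = 1.08e-05, edgeR quasi-likelihood test). Fau, Rpl36al and Gnb2l1 were also called higher against DMSO, and at 3 µM their log2 fold changes were 1.65, 1.57 and 1.81. Fau, a ubiquitin-like protein fused to a small-subunit protein, rose from 163 ± 24.1 to 513 ± 7.63 CPM (SD, n = 3).

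Genes that build ribosomes or work with them rose as well, by less at the median. Beside the counts in this list and those below, 15.4% of all tested genes rose and 11.8% fell at 1.5 µM, and 29.9% rose and 27.7% fell at 3 µM. Of 72 tested genes for ribosomal RNA synthesis and ribosome assembly, 62 rose at 1.5 µM and 68 at 3 µM with none lower, and the median log2 fold change was 0.25, 0.71 and 1.22 at 1, 1.5 and 3 µM. Nop56, a core protein of the snoRNPs that modify ribosomal RNA, rose from 50.7 ± 3.32 to 199.9 ± 25.5 CPM, and the nucleolar proteins Npm1 and Ncl had log2 fold changes of 1.81 and 1.57. Ubtf, Taf1a, Taf1b and Urb1 did not pass the test at 3 µM. Of 29 translation factors and other TOP mRNAs, 27 rose at 3 µM and 1 fell, with a median of 1.22. The elongation factors Eef1a1 and Eef2 rose from 5781 ± 658 to 15361 ± 987 CPM and from 2868 ± 381 to 6745 ± 274 CPM. The gene that fell was Vim (-2.21, adjusted p = 0.0332, edgeR quasi-likelihood test), an intermediate filament of mesenchymal cells with a TOP mRNA. Vim lost its call, leaving 26 higher and 0 lower, with no filter on low counts, without culture 2, and without culture 2 or 3 in DMSO or culture 1 or 2 at 3 µM.

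**Figure D4:**
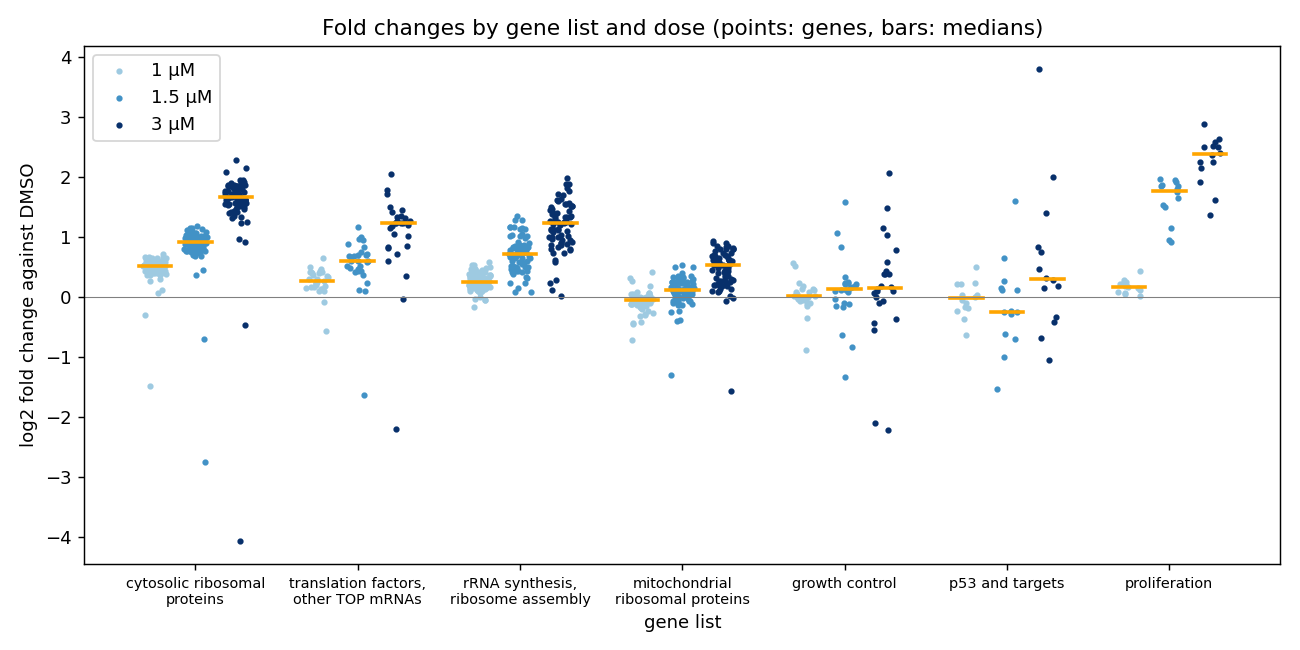
Log2 fold change against DMSO (y axis) of every tested gene in 7 gene lists at 1, 1.5 and 3 µM CHIR99021 (light to dark points), with the list's median as an orange bar. The medians of the cytosolic ribosomal proteins were 0.51, 0.91 and 1.66, those of the mitochondrial ribosomal proteins -0.06, 0.11 and 0.52.

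The ribosome of the mitochondrion, encoded by other nuclear genes, moved less. Of 76 tested mitochondrial ribosomal protein genes, 6 rose and 1 fell at 1.5 µM, and 45 rose and 1 fell at 3 µM, with median log2 fold changes of -0.06, 0.11 and 0.52 over the 3 concentrations. The one that fell was Mrps6 (103 ± 6.40 to 34.7 ± 10.03 CPM), and among the highest were Mrpl38 at 0.92 and Mrps25 at 0.90. Without cultures 1 and 2 in turn, 22 and 26 rose at 3 µM. Transcripts encoded by the mitochondrial genome held 2.27, 2.43, 2.83 and 2.43% of counts in the 4 groups.

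Known regulators of ribosomal protein genes had changes in both directions. Of 24 tested growth-control genes, 9 rose and 2 fell at 3 µM, with a median log2 fold change of 0.15, and 7 changed without culture 1 and 6 without culture 2. Of all genes, 29.9% rose and 27.7% fell, and scaling by library size alone gave 4 higher and 5 lower in this list. Myc, the transcription factor named above, rose from 45.1 ± 7.90 CPM in DMSO to 67.0 ± 11.7, 135 ± 26.2 and 188 ± 33.0 CPM with dose, called at 1.5 µM (log2 fold change 1.58) and 3 µM (2.06). Mxd4, an antagonist of MYC at its binding sites, fell from 244 ± 2.33 to 52.2 ± 18.8 CPM, and Mxd1, of the same family, rose from 26.5 ± 3.66 to 73.6 ± 22.4 CPM. Larp1, which binds TOP mRNAs, rose by 0.42 on the log2 scale at 3 µM, and Mtor, Rptor, Tsc1, Tsc2 and Eif4ebp1 did not pass the test.

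Other lists that bear on growth moved with the dose too. All 14 proliferation genes rose at 1.5 and 3 µM, with median log2 fold changes of 0.17, 1.77 and 2.38 over the 3 concentrations, and none was called at 1 µM. At 1 µM the members' median was 0.51, and without the replicate block none of them was called either. With the block, 0 of the 14 proliferation genes were called at 1 µM. For the members the block gave 60 higher and 1 lower, against 2.55% and 3.06% of all genes. Ccnb1, the mitotic cyclin, rose from 8.75 ± 1.09 CPM in DMSO to 64.6 ± 36.3 CPM at 3 µM. Of 14 tested genes of p53 and its targets, 6 rose and 1 fell at 3 µM, against 29.9% and 27.7% of all genes. With library size alone, or without culture 1 in DMSO, 5 rose and 3 fell. Among them Cdkn1a, a cell-cycle inhibitor, measured 84.7 ± 35.3, 81.5 ± 20.1 and 91.1 ± 18.8 CPM up to 1.5 µM and 336 ± 43.5 CPM at 3 µM, while Mdm2 (0.17, adjusted p = 0.215, edgeR quasi-likelihood test) did not pass. Whether these lists and the ribosomal protein genes move in the same cells was not tested.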

How the data were processed

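Polyadenylated RNA of 12 organoid libraries was sequenced from stranded TruSeq libraries on an Illumina HiSeq, per the labels' protocols. The authors deposited whole-number counts per Ensembl gene. The submitters' processing notes name TopHat2 2.1, Bowtie 1.1.0, HTSeq, DESeq2 and GRCm38/mm10. The strand setting of the counting, the annotation release and the rule for multiply mapping reads are not given in the sources used here. The deposited log2 table was not used.

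Genes were kept by filterByExpr over the 4 groups (15316 of 25210). The main fit was edgeR 4.0.16 in R 4.3.3 (TMM, robust glmQLFit, two-sided glmQLFTest) over all 12 libraries without a replicate block, with Benjamini-Hochberg adjustment over all tested genes and a threshold of 0.05. Standard errors are the log2 fold change divided by the root of F. Log2 CPM used a prior count of 2. Replicate numbers pair libraries of 1 animal, per the series' design, and deviations from group means correlated at 0.177 to 0.840 over 18 same-numbered pairs. The median was 0.505 for these pairs and -0.212 for differently numbered pairs. The fitted spread among replicates (common biological coefficient of variation) was 0.305 without the replicate block and 0.156 with it. Replicates of a group differed by more than sampling noise (lowest chi-square per degree of freedom 13.2). Exon lengths, overlaps and shared 50-base windows came from GENCODE M21, promoters from RefSeq. The fit was tested on simulated counts. Alternatives were other scalings, DESeq2 1.42.0, no filter, the replicate block, 2-group fits and leaving out libraries or cultures.

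The members and gene lists were chosen with earlier results of these data known. Named members were the 6 highest and 6 lowest at 3 µM, the stalk, the paralogue pairs, members with other roles and the 3 most abundant. Examples from each other list came from the 2 highest and 2 lowest called genes at 3 µM with a mean of at least 10 CPM, or from a short list of known factors. Genes named as not passing the test were chosen after their values were seen. The naming rule misses Rpsa and Rpl36al, given separately. Some genes are not reported by name here.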

Additional observations from a re-analysis of the deposited data

How the results depend on the processing

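At 3 µM against DMSO, 78 or 79 members were called higher and 1 lower in every alternative except the replicate block, which gave 79 and 2. At 1 µM, where the main fit called 0, DESeq2 called 67 and the replicate block 61, and every other alternative 0. For the step from 1 to 1.5 µM, with 6 called, the replicate block gave 67, DESeq2 39, DESeq2 size factors 3, the fit of only the 2 groups 3, and no filter on low counts 0. Leaving out libraries or cultures gave 0 to 23, the highest without culture 3 at 3 µM. From 1.5 to 3 µM, leaving out gave 9 (without culture 1) to 80 of a main count of 77. Members called relative to the set numbered 15, against 25 with DESeq2, 29 with the replicate block, 9 with no filter, 6 with only the 2 groups and 4 to 18 on leaving out (9 without DMSO culture 1 or 3 µM culture 1, 7 without culture 2). For the other lists at 3 µM, leaving out gave 23 to 56 mitochondrial ribosomal proteins (main 46) and 6 to 14 growth-control genes (main 11; 7 with only the 2 groups). With tested protein-coding genes other than the 10 most abundant as denominator, the summed share was 5.45% at 1.5 µM and 7.57% at 3 µM, and with library size alone the mean of the libraries' medians at 3 µM was 1.46. Where a count moved, the cause was not tested. At 3 µM against DMSO, of 704 values of 32 named members under the alternatives, 702 kept their direction and call, Rpl23a lost its call without culture 2 and Rps4l (-0.54) gained one with the replicate block, and 0 reversed. At 1.5 µM against DMSO the calls of Rpl3, Rpl38 and Rpl10 held in 20 of 22 alternatives each, and from 1.5 to 3 µM those of Rpl3 in 14 and Rps21 in 11 of 22. Leaving out a culture leaves 2 libraries per group. Members with few counts, such as Rpl39l, Rps4l and Rpl23a, are limited by depth, and intervals here cover only the spread among these 3 cultures.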
